A study of Homo sapiens with 6 samples.

Results

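The mRNAs described here are those of 10 genes that govern the step from G1 to S phase of the cell cycle, chosen by name for their role. The rule uses no measured value, but it was set with earlier results of these data known. All 10 were found by Ensembl identifier among the 20308 genes of each expression table. They are 4 inhibitors of cyclin-dependent kinases (CDKN1A, CDKN1B, CDKN2C and CDKN2D), 3 G1 cyclins (CCND1, CCND3 and CCNE2), the kinases CDK2 and CDK4, and the transcription factor E2F1. They were measured by RNA-seq in LNCaP-AI, an androgen-independent line derived from LNCaP prostate cancer cells and serving here to represent castration-resistant disease (CRPC). All 6 libraries came from LNCaP-AI cells under androgen deprivation. In 3 libraries (shMETTL1) METTL1 was stably knocked down with a short hairpin (shRNA). METTL1 is an enzyme that writes N7-methylguanosine in several kinds of RNA, among them the interior of mRNA. The other 3 (shscramble) carried a scrambled hairpin. The study lists 1 hairpin sequence against METTL1, so an effect of the hairpin and of the loss of METTL1 cannot be told apart. The study says in general terms that its data come from biological replicates, but the labels do not say whether the libraries of a group are separate cultures, so the p-values measure the spread between these libraries only, which may be technical.

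In G1, D-type cyclins pair with CDK4 and its relative CDK6 and begin to phosphorylate the retinoblastoma protein, which otherwise holds back the E2F factors. Freed E2F switches on the genes of S phase, among them the E-type cyclins that pair with CDK2 and complete the phosphorylation. The inhibitors fall into a pair of families. INK4 proteins such as those of CDKN2C (p18) and CDKN2D (p19) bind CDK4 and CDK6 alone, while CIP/KIP proteins such as those of CDKN1A (p21) and CDKN1B (p27) bind cyclin-CDK complexes and block CDK2. Much of this control acts on protein, through phosphorylation, binding and degradation, which mRNA levels do not show. In prostate cancer cells androgen signalling and the G1 machinery are linked, since androgen receptor activity drives entry into S phase.

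Values are FPKM (fragment counts divided by transcript length and by library size), so levels of different genes can be set side by side. The main test was a linear model with limma on log2(FPKM + 0.5) over the 12156 genes whose FPKM averaged 0.5 or more, with p-values adjusted over all of them by the Benjamini-Hochberg method and called under 0.05. The same comparison was also run with edgeR and DESeq2 on the estimated counts. Totals of these counts ran from 3389897 to 3604835 per library, but both columns appear to have been scaled to a common depth, so the number of reads behind a value is unknown. The target of the hairpin was lower in every shMETTL1 library. METTL1 had 13.9, 18.5 and 21.0 FPKM in shscramble replicates 1, 2 and 3 and 8.35, 10.5 and 8.18 in shMETTL1 replicates 1, 2 and 3. Its level by FPKM was 50.7% of the control, with an exact two-sided permutation p of 0.1, the smallest that 3 libraries against 3 allow. By estimated counts it was 39.0% of the control. The 2 columns disagreed for METTL1, whose count per unit of FPKM differed 2.72-fold between libraries and was lowest in shMETTL1 replicate 1. METTL1 was not called by limma (adjusted p = 0.127) and was called by edgeR (adjusted p = 0.0368), with adjusted p-values between 0.00476 and 0.366 across alternatives. The cells had the markers of prostate luminal cells, led by KLK3 at a mean of 998 FPKM. All 9 luminal markers listed were detected, with sums of 2472 to 2532 FPKM in shscramble and 1955 to 2218 in shMETTL1. Of these, KLK2 (201 ± 5.02 and 94.9 ± 11 FPKM; SD, n = 3 each), KLK3 and TMPRSS2, all androgen receptor targets, fell by edgeR and KLK2 also by limma, and the part of this in the results for the 10 genes was not tested. Markers of fibroblasts summed to at most 13.5 FPKM, of basal and neuroendocrine cells to 5.01, and of immune and endothelial cells to less than 1, and DCN, LUM, PTPRC, CD3E, CD79A, CDH5, KDR, KRT5 and CHGA were listed at 0 in all libraries.

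CDKN1A had the largest difference of the 10 genes and was the 1 called by edgeR and DESeq2, while limma left it just short of the threshold. Its mRNA was 2.79-fold higher on average in shMETTL1 cells, and the 9 other genes lay within 1.52-fold of the control on the log2(FPKM + 0.5) scale, with none called under any setting. By limma none of the 10 was called, against 0.123% of all genes tested (0.0494% higher and 0.074% lower). With an unadjusted p below 0.05 there was 1, CDKN1A, against 14.2% of all genes, and CDKN1A was also the 1 member past the thresholds of the study (a fold change over 1.5 together with an unadjusted p below 0.05), which 8.97% of all genes passed (4.59% higher). By edgeR 1 of the 10 was called, again CDKN1A, against 6.33% of the 11248 genes tested (2.68% higher and 3.65% lower), and DESeq2 called the same gene, against 6.23% of 11437 (2.67% higher and 3.57% lower). The groups of FPKM values did not overlap for 2 of the 10, CDKN1A (higher) and CDKN2C (lower), against 19.8% of all genes (10.5% higher and 9.33% lower). With 10 genes, 1 or 2 of them called or apart is near these shares, so the counts set the 10 no further apart than genes at large. The median log2 fold change of the 10 was -0.05, beside 0.02 over all genes tested.

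**Figure D1:**
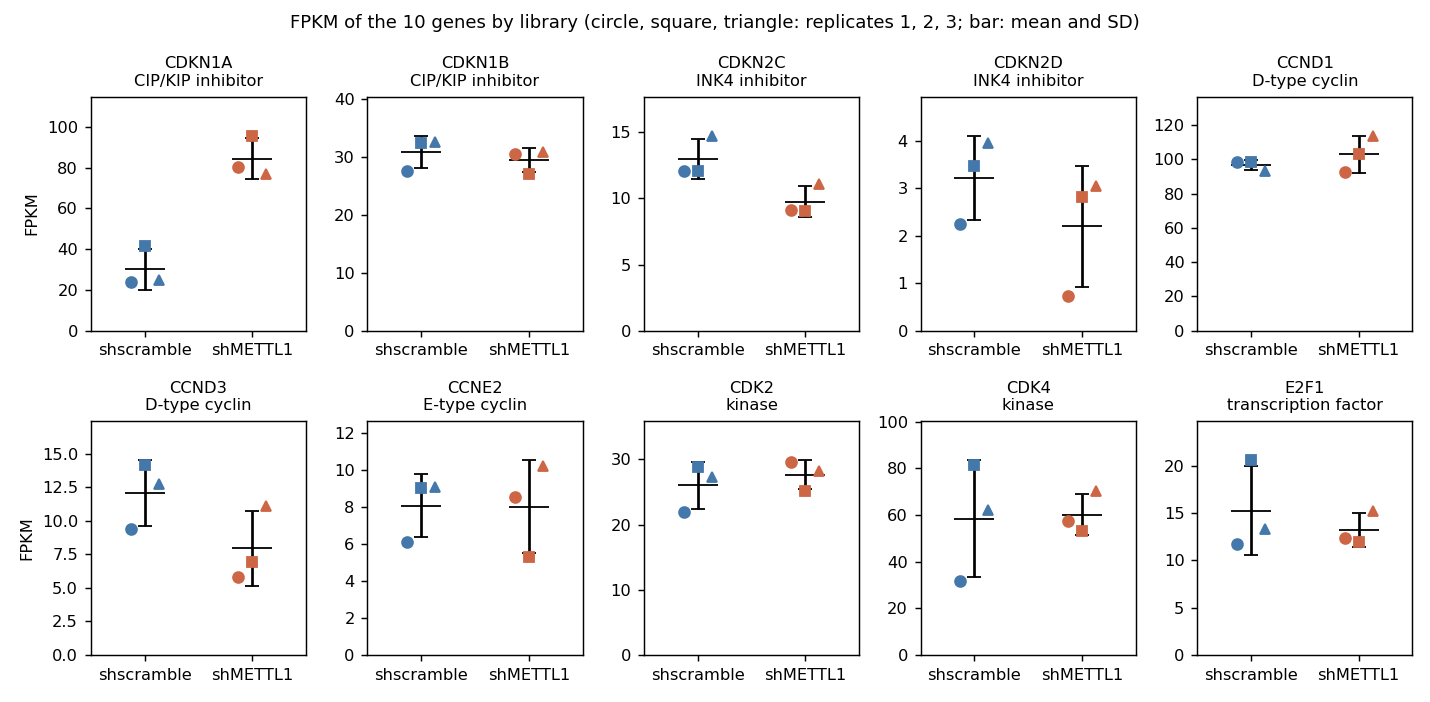
FPKM of each of the 10 genes (vertical axes, each from 0) in the 3 shscramble and 3 shMETTL1 libraries, with circles, squares and triangles for replicates 1, 2 and 3 and the group mean and SD as bars. CDKN1A lies between 76.8 and 95.7 in shMETTL1 and between 23.9 and 41.7 in shscramble, and for 8 of the other 9 genes the groups overlap.

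The CIP/KIP inhibitors came first among the members, and their principal pair parted. CDKN1A (ENSG00000124762; GRCh38 chromosome 6, 36676460 to 36687339, plus strand) encodes p21, which halts the cycle in G1. It had 23.9, 41.7 and 24.8 FPKM in shscramble replicates 1, 2 and 3 and 80.3, 95.7 and 76.8 in shMETTL1 replicates 1, 2 and 3. The lowest shMETTL1 library lay well above the highest shscramble library, and within the control group replicate 2 stood above the other two. These values averaged 30.2 ± 10 and 84.3 ± 10.1 FPKM (SD, n = 3 each). On the log2 scale shMETTL1 was higher by 1.51 (standard error 0.22), a 2.84-fold difference with a 95% interval of 2.01 to 4.02. The exact permutation p was 0.1, the least possible here. By limma the adjusted p was 0.0536, just above the threshold, and by p CDKN1A ranked 16 among 12156 genes, next after the 15 that were called. By edgeR CDKN1A rose (log2 fold change 1.37, adjusted p = 9.6e-05), as it did by DESeq2 (1.37, adjusted p = 9.78e-14), and 15 of the 25 alternatives called it, at adjusted p-values between 9.78e-14 and 0.222 for all 25.

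Among single libraries, leaving out 1 control turned the call on FPKM. Without shscramble replicate 2, in which CDKN1A was highest among the controls, its log2 fold change was 1.76 and its adjusted p by limma 0.00899. Without any other single library the adjusted p by limma lay between 0.139 and 0.222, with log2 fold changes of 1.37 to 1.57. By edgeR CDKN1A was called whichever library was left out, with adjusted p-values of 8.19e-08 to 0.00183. In these counts CDKN1A had 204, 353 and 215 in shscramble replicates 1, 2 and 3 and 662, 744 and 647 in shMETTL1 replicates 1, 2 and 3, the same order of libraries as by FPKM. The count per unit of FPKM of CDKN1A differed by 1.11-fold at most between libraries, beside a median of 1.35 over 11802 genes, so its values hardly depended on which column was used.

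**Figure D2:**
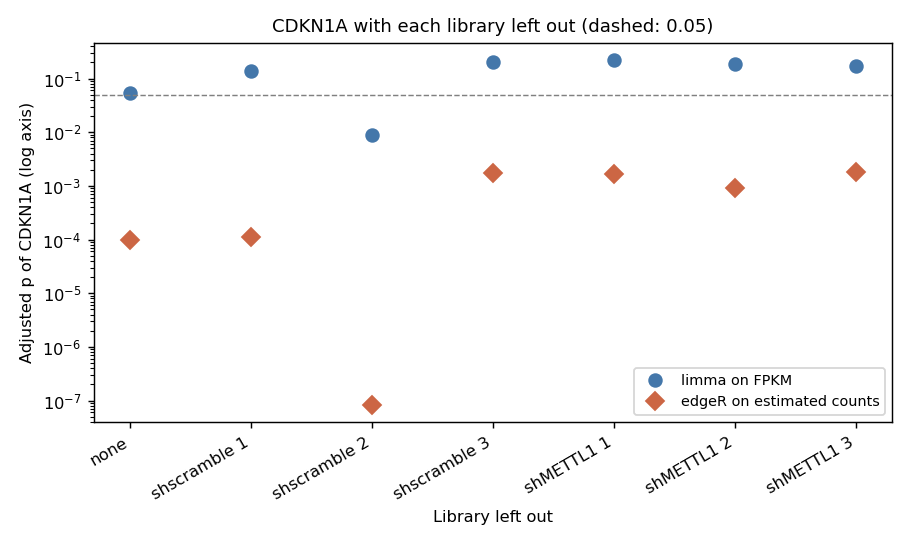
Adjusted p of CDKN1A (log axis) with no library and with each of the 6 libraries left out (horizontal axis), by limma on FPKM (circles) and edgeR on estimated counts (diamonds), with 0.05 as a dashed line. By limma it passes only without shscramble replicate 2 (0.00899), and by edgeR it passes in all 7 fits.

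CDKN1B (ENSG00000111276; GRCh38 chromosome 12, 12715058 to 12722371, plus strand) encodes p27, the inhibitor that holds quiescent cells out of the cycle and that is controlled largely by protein degradation. It had 27.7, 32.4 and 32.7 FPKM in shscramble replicates 1, 2 and 3 and 30.6, 27.1 and 30.9 in shMETTL1 replicates 1, 2 and 3. The groups overlapped through shscramble replicate 1, and the other controls lay above all shMETTL1 libraries. Their averages were 30.9 ± 2.82 and 29.5 ± 2.10 FPKM (SD, n = 3 each), and the 95% interval of the fold change ran from 0.75 to 1.22 (adjusted p = 0.884 by limma). The direction turned in the estimated counts, with a log2 fold change of -0.06 by limma and 0.13 by edgeR. The third CIP/KIP gene, CDKN1C (p57), was scarce, with 0.139, 1.03 and 0.427 FPKM in shscramble replicates 1, 2 and 3, and was listed at 0 in all shMETTL1 libraries.

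In control cells p21 and p27 mRNAs were thus near parity, and in shMETTL1 cells the former outnumbered the latter. The ratio of CDKN1A to CDKN1B in FPKM was 0.865, 1.29 and 0.76 in shscramble replicates 1, 2 and 3 and 2.63, 3.53 and 2.48 in shMETTL1 replicates 1, 2 and 3. CDKN1A made up 48.2% ± 6.56 of the summed FPKM of CDKN1A, CDKN1B and CDKN1C in shscramble and 73.9% ± 3.55 in shMETTL1 (SD, n = 3 each), and 49.9% ± 2.97 and 70.9% ± 3.45 of their estimated counts. Against its kinase partner the shift was of like size, since CDKN1A over CDK2 lay between 0.913 and 1.44 in shscramble and between 2.71 and 3.8 in shMETTL1, and against cyclin D1 it averaged 0.311 ± 0.0986 and 0.824 ± 0.134. CDKN1B over CDK2 was 1.19 ± 0.0704 and 1.07 ± 0.0321. These ratios were formed from chosen genes and are given without a test.

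**Figure D3:**
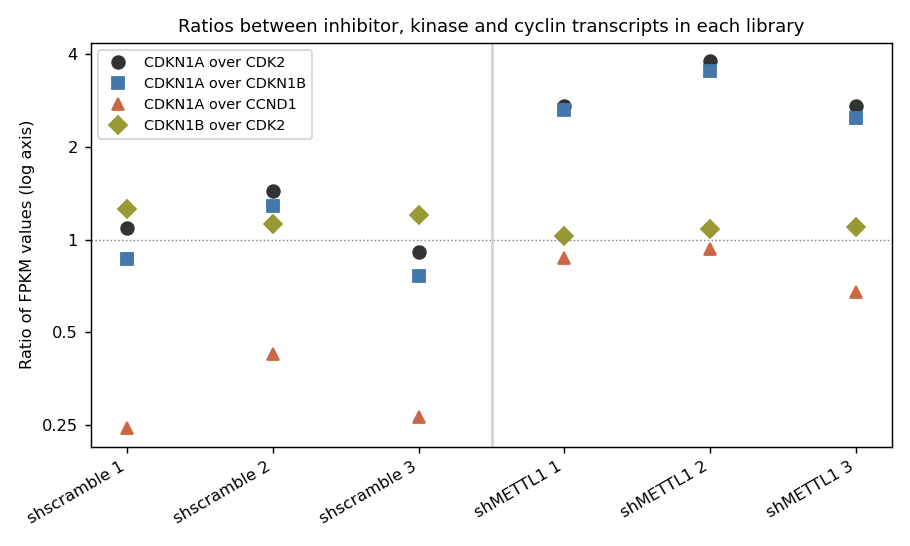
Ratios of FPKM values between pairs of genes (vertical log axis) in each of the 6 libraries. CDKN1A over CDK2 lies between 0.913 and 1.44 in shscramble and between 2.71 and 3.8 in shMETTL1, while CDKN1B over CDK2 stays between 1.03 and 1.26 in all 6 libraries.

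The stretches of DNA before the transcription starts of this pair are shown because the genes differ in response within 1 family. They are the 250 bases upstream of the RefSeq start, read 5′ to 3′, with GC boxes in capitals, the letters GGGCGG on either strand, matches being allowed to overlap. GC boxes are bound by SP1 and its relatives. The CDKN1A window (GRCh38.p14, chr6:36678464-36678713, plus strand) held 4 matches, the last pair of them overlapping. The CDKN1B window (chr12:12717118-12717367, plus strand) held 1.
CDKN1A: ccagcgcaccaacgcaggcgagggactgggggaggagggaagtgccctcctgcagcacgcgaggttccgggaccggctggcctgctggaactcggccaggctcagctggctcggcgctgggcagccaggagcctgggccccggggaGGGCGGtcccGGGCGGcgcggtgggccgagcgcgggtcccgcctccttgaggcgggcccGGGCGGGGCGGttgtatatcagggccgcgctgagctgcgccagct
CDKN1B: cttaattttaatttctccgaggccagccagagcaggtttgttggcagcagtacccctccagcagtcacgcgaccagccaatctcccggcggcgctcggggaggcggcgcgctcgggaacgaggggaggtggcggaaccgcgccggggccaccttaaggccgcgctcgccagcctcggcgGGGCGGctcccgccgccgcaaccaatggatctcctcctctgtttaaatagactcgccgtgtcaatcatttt

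A GC box by these letters stood in 42.6% of the 35116 promoter windows of that table and in 6 of the 7 members that have an entry (CCND1, CCNE2 and CDK2 have none). By number, CCND3 and E2F1 held 5 matches each, CDK4 held 3, CDKN2D 2 and CDKN2C none, so CDKN1A lay within the range of the other members. Whether GC boxes bear on the response of any of these genes was not tested, and a match is a description of letters, not of binding.

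The INK4 inhibitors had lower means in shMETTL1 cells, and neither passed a test. CDKN2C (ENSG00000123080; GRCh38 chromosome 1, 50960745 to 50974633, plus strand) encodes p18. It had 12.1, 12.1 and 14.8 FPKM in shscramble replicates 1, 2 and 3 and 9.12, 9.03 and 11.1 in shMETTL1 replicates 1, 2 and 3. All shMETTL1 libraries lay below all shscramble libraries, which 9.33% of all genes tested also showed. Its level was 75.1% of the control, and limma gave an unadjusted p of 0.0772 (adjusted p = 0.399, and 0.162 to 0.668 over the alternatives). CDKN2D (ENSG00000129355; GRCh38 chromosome 19, 10566462 to 10569059, minus strand) encodes p19 and was the scarcest of the 10. It had 2.24, 3.47 and 3.96 FPKM in shscramble replicates 1, 2 and 3 and 0.731, 2.82 and 3.05 in shMETTL1 replicates 1, 2 and 3. The lowest values of both groups were in their replicate 1, and shMETTL1 replicate 1 rested on an estimated count of 2.72. The fold change of CDKN2D was accordingly loose, with a 95% interval of 0.33 to 1.35 (adjusted p = 0.586 by limma).

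Of 3 other inhibitors tested, CDKN3 and CDKN2A had lower means with an unadjusted p below 0.05, against 6.8% of all genes. None was called by limma, and edgeR, which tested 2 of them (not CDKN2B), called neither. CDKN3, a phosphatase that removes the activating phosphate from CDK2, had 92.2, 79.6 and 75.8 FPKM in shscramble replicates 1, 2 and 3 and 46.5, 52.7 and 67.0 in shMETTL1 replicates 1, 2 and 3. The groups did not overlap, which 9.33% of all genes tested also showed in this direction. The unadjusted p was 0.00738 by limma, and the adjusted p was 0.188 by limma and 0.0627 by edgeR (0.0192 to 0.449 over the alternatives). CDKN2A, the locus of p16 and ARF, averaged 22.8 ± 2.45 and 16.5 ± 2.13 FPKM (SD, n = 3 each; adjusted p = 0.309 by limma). By the estimated counts its difference was smaller, with a log2 fold change of -0.12 by edgeR against -0.46 by limma on FPKM. CDKN2B, which encodes p15, was near the limit of the filter at 0.444 ± 0.265 and 0.595 ± 0.332 FPKM.

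The G1 cyclins showed no called difference. CCND1 (ENSG00000110092; GRCh38 chromosome 11, 69641087 to 69654474, plus strand) encodes cyclin D1 and was the most abundant of the 10 genes in both groups. It had 98.2, 98.3 and 93.4 FPKM in shscramble replicates 1, 2 and 3 and 92.4, 102.9 and 113.9 in shMETTL1 replicates 1, 2 and 3. The lowest and the highest value both belonged to shMETTL1. Its fold change of 1.06 had the narrowest interval of the 10, from 0.86 to 1.31 (adjusted p = 0.796 by limma). CCND3 (ENSG00000112576; GRCh38 chromosome 6, 41934933 to 42050357, minus strand) encodes cyclin D3. It had 9.37, 14.1 and 12.8 FPKM in shscramble replicates 1, 2 and 3 and 5.81, 6.90 and 11.1 in shMETTL1 replicates 1, 2 and 3. The groups overlapped through the highest shMETTL1 library, replicate 3, and the lowest control, replicate 1. Its level was 65.7% of the control (log2 fold change -0.61, standard error 0.28, unadjusted p = 0.057, adjusted p = 0.367 by limma). CCND3 passed the thresholds of the study with median-ratio scaling (unadjusted p = 0.0416) and without shMETTL1 replicate 3 (0.0128), and its adjusted p stayed at 0.127 or more in every alternative. Cyclin D1 mRNA outnumbered cyclin D3 mRNA 8.25 ± 1.94 times in shscramble and 13.7 ± 3.02 times in shMETTL1 (SD, n = 3 each).

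CCNE2 (ENSG00000175305; GRCh38 chromosome 8, 94879770 to 94896678, minus strand) encodes cyclin E2, the partner of CDK2 and itself an E2F target. It had 6.09, 9.04 and 9.06 FPKM in shscramble replicates 1, 2 and 3 and 8.53, 5.27 and 10.2 in shMETTL1 replicates 1, 2 and 3. The averages were 8.06 ± 1.71 and 8.01 ± 2.52 FPKM (SD, n = 3 each), but the spread was wide, and changes between 0.62-fold and 1.54-fold lie within the interval (adjusted p = 0.971 by limma). The related CCNE1 averaged 13.6 ± 1.14 and 10.9 ± 1.97 FPKM (adjusted p = 0.511 by limma).

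Neither kinase was called. CDK2 (ENSG00000123374; GRCh38 chromosome 12, 55966769 to 55972784, plus strand) had 21.9, 28.9 and 27.2 FPKM in shscramble replicates 1, 2 and 3 and 29.6, 25.2 and 28.2 in shMETTL1 replicates 1, 2 and 3. The fold change was 1.07 with an interval of 0.82 to 1.39 by limma (adjusted p = 0.835), and the sign turned in the counts, with a log2 fold change of -0.16 by edgeR. CDK4 (ENSG00000135446; GRCh38 chromosome 12, 57747727 to 57756013, minus strand) lies 12457 bases from METTL1 on the same strand. It had 31.7, 81.5 and 62.1 FPKM in shscramble replicates 1, 2 and 3 and 57.4, 53.0 and 70.0 in shMETTL1 replicates 1, 2 and 3. Both the lowest and the highest value belonged to the controls. The averages were 58.4 ± 25.1 and 60.2 ± 8.82 FPKM (SD, n = 3 each), and the interval of the fold change ran from 0.68 to 1.77 (adjusted p = 0.871 by limma). Without shscramble replicate 1 the log2 fold change turned from 0.14 to -0.25 (adjusted p = 0.663). The 2 columns disagreed on how far that library lay from the others: FPKM of CDK4 spanned 2.57-fold over the 6 libraries, and its estimated counts, from 195 to 334, spanned 1.71-fold. CDK6, the second partner of cyclin D, was much scarcer at 3.09 ± 1.60 and 1.57 ± 0.772 FPKM (SD, n = 3 each; adjusted p = 0.475 by limma).

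Several of these genes share DNA with a gene on the opposite strand, and the strand setting of the counting is not given in the sources used here, so reads in the shared stretches cannot be told apart. CDK2 lies wholly within the annotated span of PMEL, a melanosome gene with 0.938 to 3.72 FPKM in these libraries. CDK4 shares 2485 bases with TSPAN31 (12.2 ± 1.96 and 13.3 ± 5.54 FPKM), CCNE2 shares 1977 bases with INTS8, and CCND1 shares 1399 with LTO1 (SD, n = 3 each). CDKN1A shares 951 bases with the noncoding RNA gene DINOL, which is not among the genes measured. The target METTL1 shares 1302 bases with EEF1AKMT3 (4.06 ± 2 and 7.47 ± 2.56 FPKM; SD, n = 3 each; adjusted p = 0.365 by limma). None of PMEL, TSPAN31, INTS8 and LTO1 was called by limma, with adjusted p-values of 0.371, 0.952, 0.878 and 0.876.

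**Figure D4:**
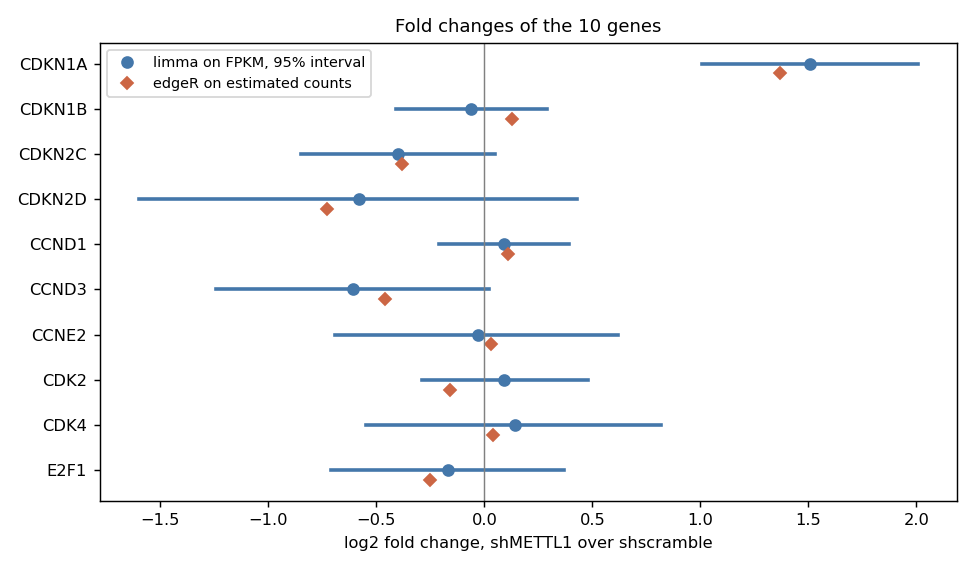
Log2 fold change of each of the 10 genes (shMETTL1 over shscramble, horizontal axis), with the 95% interval of limma on FPKM (circles and lines) and the estimate of edgeR on counts (diamonds). The interval of CDKN1A runs from 1.01 to 2.01 and lies clear of 0, and the 9 others include 0.

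E2F1 (ENSG00000101412; GRCh38 chromosome 20, 33675683 to 33686404, minus strand), the transcription factor at the end of this path, had 11.8, 20.6 and 13.3 FPKM in shscramble replicates 1, 2 and 3 and 12.4, 12 and 15.2 in shMETTL1 replicates 1, 2 and 3. The control replicate 2 stood high, as it did for CDKN1A and CDK4, and the remaining 5 libraries lay close together. The fold change was 0.89 with an interval of 0.61 to 1.30 (adjusted p = 0.781 by limma), and without shscramble replicate 2 the log2 fold change was 0.06. E2F1 drives its own promoter, whose 250 bases upstream of the RefSeq start (GRCh38.p14, chr20:33686386-33686635, minus strand) are shown with the E2F motif in capitals, the letters TTTCGCGC or TTTGGCGC on either strand.
E2F1: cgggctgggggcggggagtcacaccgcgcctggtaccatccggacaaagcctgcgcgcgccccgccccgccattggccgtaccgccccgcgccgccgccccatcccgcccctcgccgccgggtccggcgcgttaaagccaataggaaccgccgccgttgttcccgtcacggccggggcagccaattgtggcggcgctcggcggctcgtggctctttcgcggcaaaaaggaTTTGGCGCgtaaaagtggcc

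That motif stood in 0.968% of the 35116 windows, and among the 7 members with an entry E2F1 was the one that held it. A copy that differs from these letters would not be found by this search.

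By level the order of the 10 genes was much alike in both groups except for CDKN1A. In shscramble CCND1 led, followed by CDK4, CDKN1B, CDKN1A, CDK2, E2F1, CDKN2C, CCND3, CCNE2 and CDKN2D, and CDKN1A could not be told from CDKN1B or from CDK2, as their libraries overlapped. In shMETTL1 CDKN1A stood second, clear of CDK4 in all libraries and overlapping with CCND1. CDKN1B and CDK2 overlapped in both groups, while CDK2 lay above E2F1 and CDKN2D lay below its nearest neighbour in both.

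Other genes of the G1 machinery, from lists chosen for their function but with earlier results of these data known, held few genes past a threshold. A count above the share of all genes is therefore a description only. Over all genes tested, 7.37% were higher and 6.8% lower with an unadjusted p below 0.05 by limma, and the counts of each list are to be read against these shares. None of the 5 tested among further G1 cyclins and kinases passed an unadjusted p under 0.05, and all 5 had negative log2 fold changes (median -0.26). None of the 15 tested ubiquitin ligase genes that act on G1 regulators, such as SKP2, which directs p27 to the proteasome (17.4 ± 3.06 and 14.7 ± 1.02 FPKM; SD, n = 3 each), passed it either, and their median was -0.00. Among 18 genes for the retinoblastoma family, E2F factors and the DREAM complex, which silences cycle genes in resting cells, 1 had a higher and 1 a lower mean with an unadjusted p below 0.05, but none was called by limma or edgeR. These were E2F4, a repressive E2F, with 24.8 ± 9.75 and 39.7 ± 7.36 FPKM, and TFDP2, a dimer partner of E2F, with 93.7 ± 12.1 and 63.8 ± 7.21 (SD, n = 3 each; adjusted p = 0.327 and 0.179 by limma). RB1 itself had an adjusted p of 0.865 by limma.

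A further 5 genes set the activating and inhibiting phosphates on CDKs or remove the latter. Of these, 2 (MNAT1 and WEE1) had lower means with an unadjusted p below 0.05, against 6.8% of all genes. None was called by limma, and edgeR called MNAT1 as lower, against 3.65% of all genes. MNAT1 encodes the assembly factor of the CDK-activating kinase, and had 79.3, 66.7 and 88.8 FPKM in shscramble replicates 1, 2 and 3 and 50.0, 43.0 and 51.5 in shMETTL1 replicates 1, 2 and 3. The groups did not overlap, which 9.33% of all genes tested also showed in this direction. By edgeR it fell (log2 fold change -0.74, adjusted p = 0.0141), and by limma it was not called (-0.69, adjusted p = 0.12; 0.000465 to 0.361 over the alternatives). Its partners in that kinase, CDK7 and CCNH, were not called by limma or edgeR. WEE1, which places the inhibiting phosphate, averaged 27.3 ± 3.93 and 18.0 ± 2.80 FPKM (SD, n = 3 each; adjusted p = 0.235 by limma), a difference that was not seen in the counts (log2 fold change -0.06 by edgeR).

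Targets of E2F that act at the entry to S phase went both ways, with log2 fold changes by limma below 0 for 11 and above 0 for 7. Of 18 tested, 4 had lower means with an unadjusted p below 0.05, among them RRM1, PCNA and MCM3, and none a higher one, against 6.8% and 7.37% of all genes. None was called by limma, and 2 fell by edgeR, against 3.65% of all genes. One of these was BRCA1, of DNA repair, with 35.4 ± 6.60 and 28.1 ± 9.70 FPKM (adjusted p = 0.0283 by edgeR and 0.546 by limma, 0.00323 to 0.925 over the alternatives). MCM3, of the replicative helicase, had 48.8 ± 6.68 and 26.0 ± 4.06 FPKM (SD, n = 3 each) and stayed short of the threshold, at an adjusted p of 0.0883 by limma and 0.0503 by edgeR (0.0107 to 0.303 over the alternatives). The median log2 fold change of the list was -0.14. Of 8 proliferation markers 3 were lower with an unadjusted p below 0.05 (median -0.30), against 6.8% of all genes, and 2 fell by edgeR, against 3.65%. These were MKI67, which encodes the antigen Ki-67 (55.1 ± 6.95 and 39.8 ± 5.20 FPKM; adjusted p = 0.0396 by edgeR, 0.00402 to 0.523 over the alternatives), and TOP2A, a topoisomerase (106 ± 27.2 and 71.0 ± 17.5 FPKM; adjusted p = 0.0291 by edgeR, 0.000422 to 0.58; SD, n = 3 each). In these bulk libraries, fewer cells in a phase and less RNA per cell cannot be told apart.

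**Figure D5:**
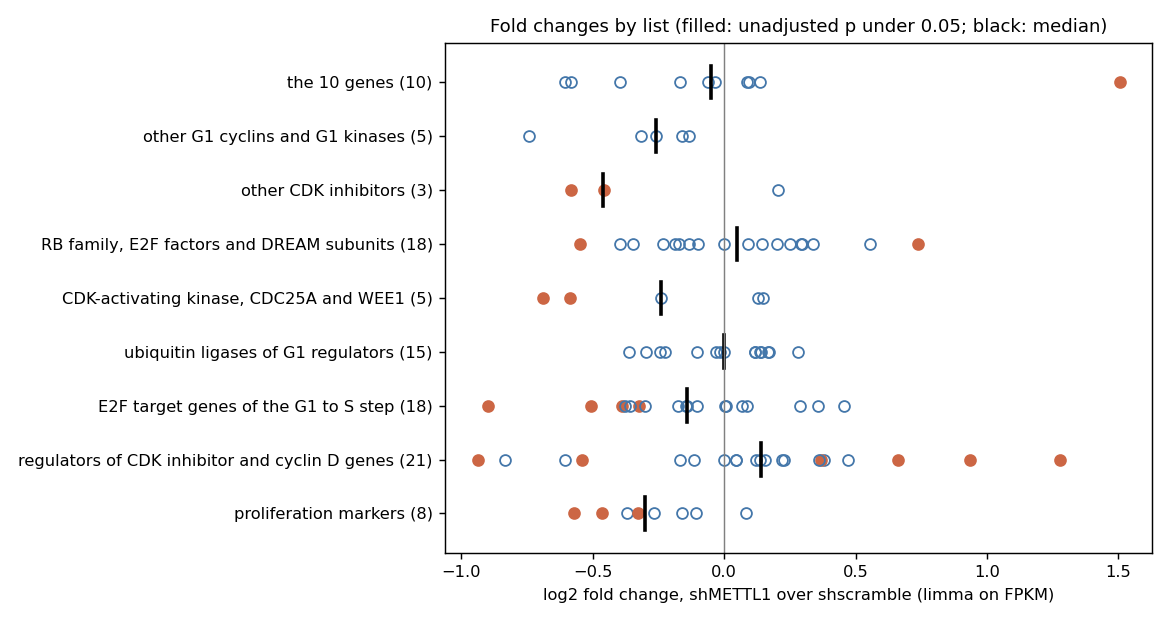
Log2 fold change by limma of each tested gene (points) of the 10 genes and of 8 lists of the G1 machinery, filled where the unadjusted p is under 0.05, with the list median as a black line and the number tested in brackets. CDKN1A stands alone at 1.51 in the top row, and proliferation markers have a median of -0.30.

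Regulators of the inhibitor and cyclin D genes included the 1 gene of these 8 lists called by limma. Of 21 tested, 4 were higher and 2 lower in mean with an unadjusted p below 0.05 (median 0.14), against 7.37% and 6.8% of all genes. By edgeR 2 rose and 1 fell, against 2.68% and 3.65%, so the counts of lower genes are near those of genes at large. The gene called by limma was ID1, which keeps helix-loop-helix factors off DNA, which rose from 13.2, 18.9 and 15.3 FPKM in shscramble replicates 1, 2 and 3 to 38.2, 35.1 and 43.3 in shMETTL1 replicates 1, 2 and 3 (adjusted p = 0.0494 by limma; 7.62e-06 to 0.222 over the alternatives). Its relatives ID2 and ID3 had higher means, at 1.91-fold and 1.58-fold, without being called by limma or edgeR (adjusted p = 0.246 and 0.294 by limma). ZBTB17 encodes MIZ1, a factor that binds the CDKN1A promoter and through which MYC represses it. It had 38.6, 27.1 and 33.1 FPKM in shscramble replicates 1, 2 and 3 and 10.1, 20.9 and 22.3 in shMETTL1 replicates 1, 2 and 3. ZBTB17 fell by edgeR (log2 fold change -1.34, adjusted p = 0.00173) but limma did not call it (-0.94, adjusted p = 0.216; 6.97e-09 to 0.434 over the alternatives). MDM2, which encodes a ubiquitin ligase, had 147, 107 and 153 FPKM in shscramble replicates 1, 2 and 3 and 160, 181 and 180 in shMETTL1 replicates 1, 2 and 3. All shMETTL1 libraries lay above all controls, and MDM2 rose by edgeR (log2 fold change 0.49, adjusted p = 0.0133) without being called by limma (0.37, adjusted p = 0.35; 9.37e-05 to 0.601 over the alternatives). MYC had a log2 fold change of 0.00 by limma.

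Across the 6 libraries the gene with the profile nearest to that of CDKN1A was SESN2, which encodes a stress-induced inhibitor of mTORC1 signalling. Nearness was the root-mean-square distance between log2(FPKM + 0.5) profiles centred on their means, and for SESN2 it was 0.156. SESN2 had 2.94, 6.75 and 3.91 FPKM in shscramble replicates 1, 2 and 3 and 14.2, 14.4 and 14.7 in shMETTL1 replicates 1, 2 and 3. It was called by edgeR (adjusted p = 0.000325) and not by limma (adjusted p = 0.0643). As SESN2 was picked for its likeness to CDKN1A in these same libraries, its pattern and its call are no separate evidence. Next came PPP3R2 (0.168), NUDT8 (0.184), SLC10A5 (0.210) and SERTAD1 (0.223), of which PPP3R2, SLC10A5 and SERTAD1 stayed below 3 FPKM in all libraries. SERTAD1 encodes a protein that binds CDK4. For the other members the nearest profiles were those of WDR75 for CDKN1B, EID1 for CDKN2C, PIBF1 for CDKN2D, FKBP2 for CCND1, GNB3 for CCND3, PABIR2 for CCNE2, CIAO1 for CDK2, POGLUT1 for CDK4 and LSR for E2F1, at distances of 0.022 to 0.1. With 6 libraries such likeness is a description only.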

How the data were processed

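RNA of LNCaP-AI cells was sequenced in 3 shMETTL1 and 3 shscramble libraries, grouped by sample title. Tools listed in the submitters' processing notes are HISAT2 2.0.4, Cufflinks, Cuffdiff and cutadapt 1.9.3, with build hg19 and no roles given. The authors deposited FPKM values, scaled to transcript length and depth, and estimated counts, mostly fractional, per Ensembl gene. Of 20308 genes, 19434 (95.7%) were paired with a symbol. Positions and overlaps come from GENCODE 29 and promoters from RefSeq (both GRCh38), not from the files' build.

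The main test was limma 3.58.1 (R 4.3.3) with trend and robust prior on log2(FPKM + 0.5), two-sided, without pairing. Rounded estimated counts were tested with the edgeR 4.0.16 quasi-likelihood test and DESeq2 1.42.0. The scripts were tested on simulated data. Exact permutation tests compared FPKM means. Alternatives varied pseudocount, filter, scaling, replicate block, prior and left-out library. The 10 genes and all lists were chosen with earlier results of these data known. UHRF1, CASP8AP2 and PECAM1, also listed, were not analysed here. Genes were named by rule: the 10, METTL1, up to 4 genes of smallest p per cell cycle list, and nearest profiles (5 for CDKN1A, 1 for the others). CDKN1C, RB1, MYC, MDM2, BRCA1, the luminal markers and overlapping neighbours were named after their values were seen. Some genes of the lists are counted in them but not reported here by name.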

Additional observations from a re-analysis of the deposited data

How the results depend on the processing

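The number of genes called by limma was 15, and 4 with no filter on low values, 6 with the replicate block, 7 with neither trend nor robust prior, and 3 to 156 with single libraries left out, the highest without shscramble replicate 2. By edgeR 712 were called, 709 with RLE size factors, 1094 with no filter on low counts, 1015 with the replicate block and 270 to 1989 with single libraries left out, and by DESeq2 713. Of the 10 genes, limma called 0, edgeR (TMM, RLE, unfiltered or with the block) and DESeq2 1, and limma 1 with median-ratio scaling, quantile normalization or the replicate block, and 0 to 1 with libraries left out. The called gene was CDKN1A in each case, with adjusted p-values by limma of 0.0348, 0.0451 and 0.0469. Past the thresholds of the study were 1 of the 10, and 2 with median-ratio scaling, quantile normalization or the replicate block, the second being CCND3, and 1 to 2 with libraries left out. Groups of 2 members did not overlap, and of 2 to 5 with libraries left out, the 5 without shscramble replicate 1 being CDKN1A, CDKN1B, CDKN2C, CDKN2D and CCND3. Groups part more easily when a library is left out. The share over all genes was not computed for these smaller sets, so these counts cannot be read as a result about the members.

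METTL1 had log2 fold changes of -1.36 by edgeR, -1.37 with RLE, -1.36 unfiltered, -1.40 with the block and -1.37 by DESeq2, all called, and -1.72 to -0.80 with libraries left out. The share of CDKN1A differed by 25.7 percentage points, and by 21 in estimated counts. Signs turned for members near 0, none of them called. CDKN1B was at 0.13 by edgeR, 0.13 with RLE, 0.14 unfiltered, 0.13 with the block, 0.13 by DESeq2 and -0.14 to 0.23 with libraries left out. CDK2 was at -0.16 in these 5 fits and at -0.23 to 0.17 with libraries left out. CCNE2 was at 0.03, 0.03, 0.04, 0.01 and 0.04 in these fits and at -0.22 to 0.26. CDK4 ran from -0.25 to 0.43 and E2F1 from -0.38 to 0.06 with libraries left out. Among other genes, FZR1 was at 0.17, 0.17, 0.18, 0.18 and 0.17 in these fits, and PABIR2 at 0.04, 0.04, 0.05, 0.04 and 0.05. With libraries left out, ranges that crossed 0 were -0.50 to 0.35 for FZR1, -0.23 to 0.20 for PABIR2, -0.56 to 0.01 for CDKN2A, -0.02 to 0.46 for CDKN2B, -0.70 to 0.05 for WEE1, -0.42 to 0.05 for CUL4A, -0.09 to 0.21 for CUL4B, -0.05 to 0.18 for FKBP2, -6.0e-05 to 0.19 for CIAO1, -0.08 to 0.49 for POGLUT1 and -0.31 to 0.07 for LSR. The cause of these changes was not tested.

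Whether equal replicate numbers mark paired libraries is unknown. Deviations of same-numbered libraries correlated at 0.00237, 0.0526 and -0.0238, which cannot exclude pairing with 3 libraries per group, and no pairing was assumed. Depth is unknown, and no counting error is given.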
